A study of Mus musculus with 5 samples.

Results

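The myeloid colony-stimulating factors and their receptors form a set of 8 genes, taken by symbol, among the 31053 genes counted. The ligands are Csf1, Il34, Csf2 and Csf3, and the receptor genes are Csf1r, Csf2ra, Csf2rb and Csf3r. All 8 were found in the count matrices, and each had at least 83 UMIs (unique molecular identifiers, counts of captured RNA molecules) in the cells kept. The cells came from mammary tumors of FVB/N MMTV-PyMT mice, in which the polyoma middle T oncogene is expressed in the mammary epithelium from the mouse mammary tumor virus promoter. From 7 weeks of age the mice received 5 mg/kg of antibody by intraperitoneal injection, 2 times a week for 6 weeks. The antibody was either isotype IgG2a (clone C1.18.4; 6 tumors) or B20-4.1.1, which blocks VEGF-A (9 tumors). Viable cells, sorted as DAPI-, were pooled from 3 tumors per library after each tumor had been marked with multiplexing oligonucleotides. The 2 isotype pools held tumors I1 to I3 and I4 to I6, and the 3 B20-4.1.1 pools held tumors B1 to B3, B4 to B6 and B7 to B9. Since a pool held 1 treatment, pool and treatment cannot be told apart, and tests over tumors take tumors of 1 pool as independent.

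Csf1, also called M-CSF, and Il34 both bind the receptor tyrosine kinase Csf1r, which sustains monocytes and tissue macrophages. Csf2, or GM-CSF, binds a receptor made of the ligand-specific alpha chain Csf2ra and the signalling beta chain Csf2rb, which the receptors for IL-3 and IL-5 also use. Csf3, or G-CSF, binds Csf3r and drives the production and release of neutrophils. In mammary tumors the Csf1 to Csf1r axis is known for recruiting and maintaining tumor macrophages, and Csf2 is made by activated T cells and by some tumor cells.

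Of 30340 deposited cells, 19533 had 2500 to 27500 UMIs and at most 20% mitochondrial UMIs. The tumors held between 4014509 and 23726246 gene UMIs before this filter, and the median per kept cell ranged from 4043 to 10591 UMIs. Within a pool no barcode occurred under 2 tumors, and 94 barcodes of 30246 occurred in more than 1 pool. Clusters were named from marker genes, with the 8 genes kept out of the clustering. This gave 13711 epithelial-like, 2931 T-like, 1429 macrophage-like, 199 neutrophil-like, 197 B-like, 64 fibroblast-like and 57 dendritic-like cells, and 945 cells without a name. The epithelial-like cells held all 7 epithelial markers in at least 25% of cells and the macrophage-like cells all 8 of theirs, whereas the dendritic-like cells held 5 of 10. Cluster 12 (332 cells, among the unnamed) was led by Retnla, Ccl6 and Lyz1 and held markers of both monocytes and macrophages. B3, B4 and B6 stood apart, with 59.5%, 68.3% and 67.4% T-like cells against 3.01% to 23.8% in the remaining tumors.

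Levels are given as UMIs per 10000 UMIs of a class, pooled over tumors with a 95% Poisson interval unless a sample is named. The libraries count 3′ ends, so levels were compared between classes for 1 gene and not between genes. The limit given for a count of 0 is the level that 3 UMIs would give, not the upper end of a Poisson interval. Intervals and these limits cover counting error only. Shares of cells with a UMI were taken after every cell was thinned to 2500 UMIs, so that classes of different depth could be set side by side.

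The 4 receptor genes were each highest in a myeloid class, but not in the same one, whereas each ligand had its highest level outside the macrophage-like cells. Csf1r was highest in macrophage-like cells, Csf2rb in the dendritic-like cells and Csf3r in neutrophil-like cells. Csf2ra was similar in macrophage-like cells and cluster 12. Csf1 and Il34 were highest in fibroblast-like cells, Csf2 in T-like cells and Csf3 in cluster 12 and epithelial-like cells, where its UMIs were few.

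**Figure D1:**
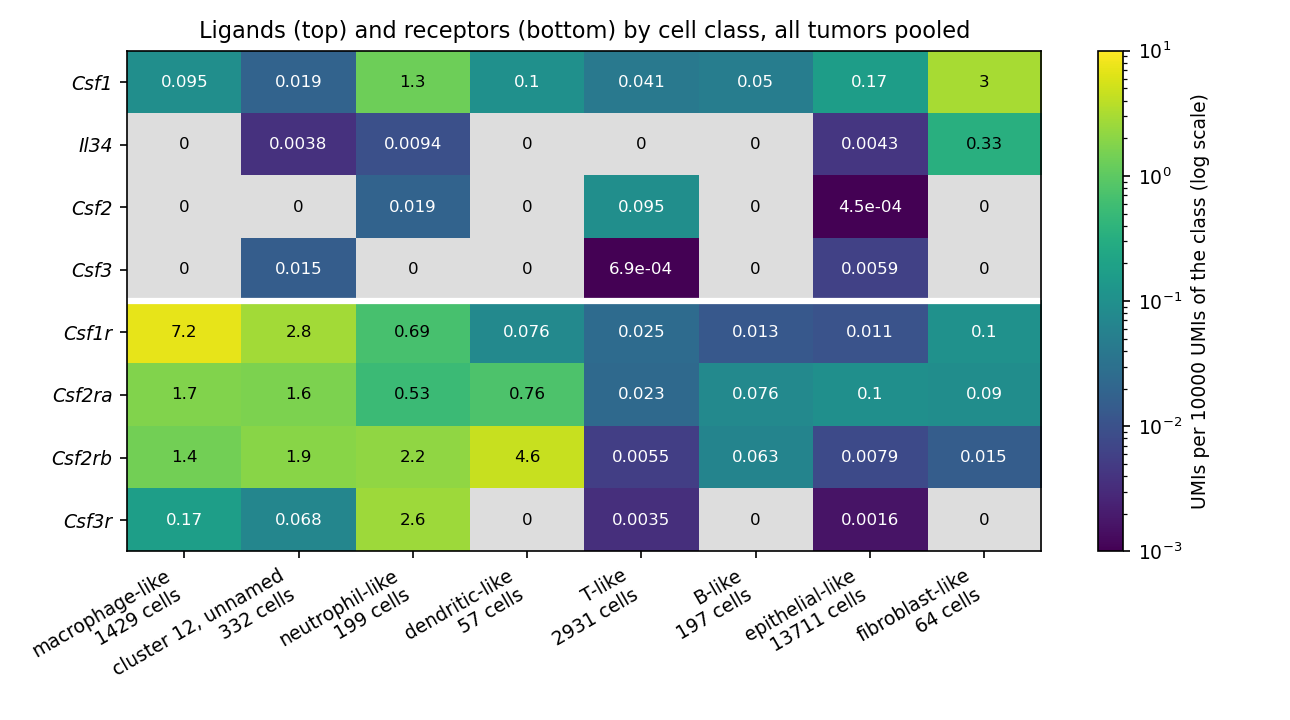
Heat map of the pooled level of each gene (rows, UMIs per 10000 UMIs, log colour scale) in 7 marker-named classes and cluster 12 (columns), with a count of 0 in grey. Csf1r reaches 7.18 in macrophage-like cells, Csf2rb 4.60 in dendritic-like cells, Csf3r 2.64 in neutrophil-like cells and Csf1 2.98 in fibroblast-like cells.

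Csf1r marked the macrophage-like cells. Its level there was 7.18 UMIs per 10000 (7.02 to 7.35; 7504 UMIs), against 2.76 in cluster 12, 0.689 in neutrophil-like cells, 0.0249 in T-like cells and 0.0106 in epithelial-like cells. The macrophage-like cells held 85.2% of all Csf1r UMIs and 6.13% of all UMIs. After thinning, 75.4% of macrophage-like cells had a Csf1r UMI, against 0.716% of T-like and 0.387% of epithelial-like cells. Within tumors the level was higher in macrophage-like than in T-like cells in 15 of 15 tumors, by 6.43 ± 1.54 UMIs per 10000 (SD, n = 15; exact sign-flip permutation test, two-sided, p = 6.1e-05, the smallest these tumors can give, adjusted p = 0.000122 over 12 neighbouring pairs). T-like and epithelial-like cells did not differ beyond their spread in Csf1r (higher in T-like cells in 10 of 15 tumors, exact permutation adjusted p = 0.0938). The few Csf1r UMIs in epithelial-like cells stood at 65.4 per 1000 UMIs of the macrophage genes C1qa, C1qb and C1qc, close to the 62.7 per 1000 in macrophage-like cells. In T-like cells this ratio was 95.5 and in neutrophil-like cells 401. B-like, dendritic-like and fibroblast-like cells had 28.6, 429 and 700, from 1, 3 and 7 Csf1r UMIs. The source of the epithelial-like UMIs was not tested.

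Csf2ra, the GM-CSF receptor alpha chain, was shared by macrophage-like cells (1.73 UMIs per 10000; 1.65 to 1.81) and cluster 12 (1.62; 1.47 to 1.78). Dendritic-like cells had 0.758 (0.512 to 1.08) and neutrophil-like cells 0.528 (0.399 to 0.686). Epithelial-like cells had 0.0995 (0.0943 to 0.105) and held 34.9% of its 3842 UMIs, against 1.62% of the Csf1r, 4.08% of the Csf2rb and 4.21% of the Csf3r UMIs. Csf2ra stood at 613 per 1000 C1q UMIs in epithelial-like cells and 15.1 per 1000 in macrophage-like cells. The same ratio was 48.9 against 12.2 for Csf2rb and 10.1 against 1.52 for Csf3r. Csf2ra was higher in macrophage-like than epithelial-like cells and higher in epithelial-like than T-like cells, each in 15 of 15 tumors (exact sign-flip permutation adjusted p = 0.000122 for both). The second difference was 0.0804 ± 0.0308 UMIs per 10000 (SD, n = 15). After thinning, 2.71% of epithelial-like and 0.580% of T-like cells had a Csf2ra UMI, against 32.8% of macrophage-like cells.

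Across the 10 epithelial-like clusters Csf2ra ranged from 0.0503 UMIs per 10000 (0.0350 to 0.0699) in cluster 11, led by the mitosis gene Birc5, to 0.124 (0.108 to 0.143) in cluster 1. No epithelial-like cluster lacked it. Its partner Csf2rb, which is needed for signalling, had 107 UMIs in 13711 epithelial-like cells, a level of 0.00795. Of the 371 epithelial-like cells with a Csf2ra UMI after thinning, 1 also had a Csf2rb UMI (0.270%). Among the epithelial-like cells without a Csf2ra UMI the share was similar, at 0.285%. Csf2rb did not differ between T-like and epithelial-like cells beyond the spread (0.00852 ± 0.0146 against 0.00728 ± 0.00585, SD, n = 15; exact permutation adjusted p = 0.713).

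Csf2rb, the beta chain, was highest in the dendritic-like cells at 4.60 UMIs per 10000 (3.96 to 5.32), from 182 UMIs in 57 cells. Neutrophil-like cells had 2.19 (1.92 to 2.49), cluster 12 1.92 (1.75 to 2.09) and macrophage-like cells 1.40 (1.33 to 1.48). The intervals of neutrophil-like cells and cluster 12 overlapped. After thinning, 42.1% of dendritic-like, 37.7% of neutrophil-like and 25.7% of macrophage-like cells had a UMI, against 0.136% of T-like cells. Macrophage-like cells exceeded T-like cells in 15 of 15 tumors (exact sign-flip permutation adjusted p = 0.000122). The mouse also has a paralog, Csf2rb2, which encodes the beta chain particular to the IL-3 receptor and lies 20030 bp from Csf2rb on chromosome 15. Of the 50-base windows in the last 500 bases of Csf2rb transcripts, 13.4% also occur in Csf2rb2, so the split of UMIs between the genes is uncertain. Csf2rb2 too was highest in dendritic-like cells, at 1.21 UMIs per 10000, but it was lower in neutrophil-like (0.217) than in macrophage-like cells (0.432).

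Csf3r, the G-CSF receptor, was highest in neutrophil-like cells at 2.64 UMIs per 10000 (2.34 to 2.97), and these cells held 53.6% of its 522 UMIs but 0.622% of all UMIs. Macrophage-like cells had 0.174 (0.150 to 0.201) and cluster 12 0.0678 (0.0402 to 0.107). No UMI was found in the 57 dendritic-like cells, which allows a level of up to 0.0758. After thinning, 44.2% of neutrophil-like cells and 4.34% of macrophage-like cells had a Csf3r UMI, against 0.0802% of epithelial-like cells. Macrophage-like cells exceeded T-like cells in 15 of 15 tumors (exact sign-flip permutation adjusted p = 0.000122). In neutrophil-like cells the G-CSF receptor and the beta chain were seen in the same cells in part. Of the cells with a Csf3r UMI 51.1% had a Csf2rb UMI, against 27.0% of those without. The neutrophil-like cells were mixed, since epithelial markers were seen on average in 39.3% of them, beside 62.6% for neutrophil markers. Whether this plays a part in the shared detection was not tested.

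A promoter window from RefSeq (mouse GRCm38.p6; 250 bases before to 50 after the start of a gene) was used for 4 of the 8 genes, Csf1, Csf2, Csf2ra and Csf3r. Csf1r was left out of the search, so its promoter is not reported here. PU.1, encoded by Spi1, is the transcription factor best known for driving myeloid receptor genes, and it binds purine-rich sites. The letters AGAGGAAG were searched on both strands, and the matches in receptor genes are printed with the bases around them. The capitals mark the match, 9 bases before the RefSeq start of Csf2ra (chr19:61228409-61228438, minus strand) and 87 bases before the RefSeq start of Csf3r (chr4:126024561-126024590, plus strand). GENCODE starts both genes further upstream, and from its starts the match begins 2 bases into Csf2ra and 22 bases into Csf3r.
Csf2ra: gcagatgaggaAGAGGAAGcgggagacaga
Csf3r: cctccttcctgAGAGGAAGgggctgtctat
The Csf1 and Csf2 windows had no match, nor had the window of the paralog Csf2rb2, also a receptor gene. Of promoters of this length, 1495 of 32851 (4.55%) had one. Spi1 itself stood at 3.46 UMIs per 10000 in macrophage-like cells, 3.40 in neutrophil-like cells and 0.00884 in epithelial-like cells.

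Csf1, the macrophage growth factor, was highest in the 64 fibroblast-like cells, at 2.98 UMIs per 10000 (2.58 to 3.42), and 34.4% of them had a UMI after thinning. Neutrophil-like cells followed with 1.31 (1.10 to 1.55), epithelial-like cells had 0.170 (0.163 to 0.177) and macrophage-like cells 0.0948 (0.0770 to 0.115). By mass the epithelial-like cells held most of the Csf1 UMIs, 78.8%, in proportion to their 79.0% of all UMIs. Within tumors epithelial-like cells had 0.174 ± 0.0426 and macrophage-like cells 0.108 ± 0.131 (SD, n = 15), higher in epithelial-like cells in 12 of 15 tumors, a difference that did not pass (exact sign-flip permutation adjusted p = 0.109). On cells thinned to 2500 UMIs its sign turned, to -0.0427. With cells gated one by one it was 0.126, higher in 12 of 13 tumors, and passed (exact permutation adjusted p = 0.000837), and without the second B20-4.1.1 pool it was 0.0746 and also passed (exact permutation adjusted p = 0.0184). Macrophage-like and T-like cells did not differ beyond their spread either (exact permutation adjusted p = 0.132). Fibroblast-like cells with Csf1 UMIs came from 12 tumors, and B1 gave the most, with 68 UMIs in 25 fibroblast-like cells.

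Csf1 in neutrophil-like cells came mostly from the first isotype pool, with 96 UMIs in 140 cells, a level of 1.28 UMIs per 10000. The first B20-4.1.1 pool had 39 UMIs in 31 cells, a level of 2.67. The second isotype pool had 0 UMIs in 14 cells. The neutrophil-like share of kept cells was 2.56% to 2.87% in I1 to I3 and 0% to 1.63% in the remaining tumors, so the treatments could not be compared in this class.

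Within the epithelial-like cells cluster 5 held the most UMIs of both Csf1 and Il34, but the Il34 level was highest in cluster 17. Cluster 5, 1521 cells led by Klk6 and the keratin gene Krt17, had 0.338 Csf1 UMIs per 10000 (0.310 to 0.368), against 0.0800 to 0.211 in the other epithelial-like clusters. Over the 14 tumors with at least 20 such cells, cluster 5 had 0.344 ± 0.150 and the other epithelial-like cells 0.146 ± 0.0435 (SD), and it was higher in 13 of 14 tumors. The cluster was picked after its values were seen, so this is a description without a test. Il34, the second ligand of Csf1r, had 58 UMIs in the epithelial-like cells, of which 29 lay in cluster 5 and 9 in the 116 cells of cluster 17. Its level was 0.0189 (0.0127 to 0.0271) in cluster 5 and 0.0597 (0.0273 to 0.113) in cluster 17. The Il34 UMIs of cluster 17 came from 3 tumors, with 5 in I3 and 3 in I4. Csf1 in cluster 17 was at 0.146 (0.0915 to 0.221). Fibroblast-like cells had 22 Il34 UMIs, a level of 0.329 (0.206 to 0.499), of which 14 came from B1. Without B1 the Il34 level was 0.181 (0.0781 to 0.357), whereas that of Csf1 was 2.96. In macrophage-like cells no Il34 UMI was found, which allows up to 0.00287.

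**Figure D2:**
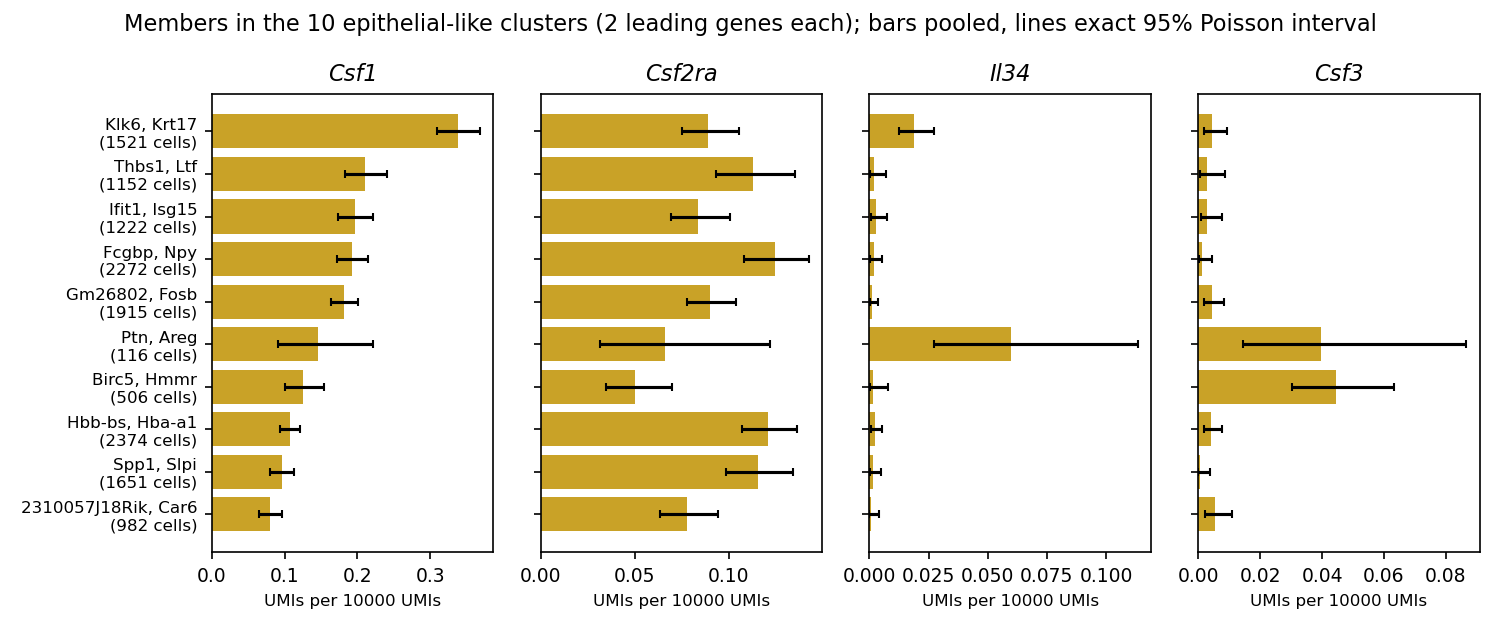
Pooled levels (UMIs per 10000 UMIs) of Csf1, Csf2ra, Il34 and Csf3 in the 10 epithelial-like clusters, with 95% Poisson intervals. Csf1 is highest in cluster 5 at 0.338, Il34 in cluster 17 at 0.0597 and Csf3 in cluster 11 at 0.0445, whereas Csf2ra stays between 0.0503 and 0.124. The Il34 value of cluster 17 rests on 9 UMIs from 3 tumors.

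Csf3, the neutrophil growth factor, was rare, with 85 UMIs in 55 of 19533 cells, of which 79 lay in epithelial-like cells. Cluster 11 held 31 of them and had 0.0445 UMIs per 10000 (0.0303 to 0.0632). The UMIs were concentrated, since 5 cells held 26 of the 85 and 1 cell held 8. In the isotype tumors I1 to I6 the epithelial-like cells had 18, 12, 2, 14, 8 and 6 UMIs. In B1 to B9 they had 3, 3, 1, 2, 6, 0, 1, 0 and 3 UMIs. As levels the groups overlapped, with 0.00189 to 0.0187 in the isotype tumors and 0 to 0.0231 in the B20-4.1.1 tumors, where the highest value came from 2 UMIs in B4. The gene did not pass the filter on low counts.

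Csf2, or GM-CSF, was counted mostly in 1 cluster of the T-like cells. T-like cells held 137 of its 153 UMIs, at 0.0946 UMIs per 10000 (0.0794 to 0.112), against 6 UMIs in all epithelial-like cells and 0 in macrophage-like cells, which allows up to 0.00287. T-like exceeded epithelial-like cells in 15 of 15 tumors (exact sign-flip permutation adjusted p = 0.000122). Among T-like cells nearly all of it lay in cluster 8, whose leading genes include the chemokine gene Xcl1, the granzyme gene Gzmb, and Klrd1 and Nkg7, which NK cells also use. The T cell receptor subunit gene Cd3e was seen in 79.4% of its cells, against 95.3% in cluster 4. The T cell markers Trac, Lat and Cd28 were in 51.9%, 39.6% and 12.1%, against 89.7%, 74.55% and 50.8% in cluster 4. Cd3d, Cd3g and Trbc2 were also in a smaller share of cluster 8. The NK receptor genes Klrk1 and Klre1 were in 50.6% and 17.8%, against 0.869% and 0.248% in cluster 4. The NK markers Ncr1, Klrb1c, Gzma and Eomes were also in a larger share of cluster 8, but Prf1 was not (11.3% against 12.8%). Cluster 8 had 131 Csf2 UMIs in 1216 cells, a level of 0.188 (0.157 to 0.223). With each cell gated on its own markers, 93 of these UMIs lay in 892 T-like, 8 in 112 NK-like and 29 in 207 unnamed cells. Cluster 4, with 1611 T-like cells, had 2 UMIs, a level of 0.00309 (0.000374 to 0.0112). Cluster 4 came mostly from B3, B4 and B6, with 1498 of its cells, whereas the other 6 B20-4.1.1 tumors gave 50 and the isotype tumors 63.

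For the treatment comparison, counts were summed per tumor within a class and fitted with edgeR over all genes that passed a filter on low counts. In macrophage-like cells 0.53% of 6043 genes were called at an adjusted p under 0.05, 0.463% higher and 0.0662% lower under B20-4.1.1, and none of the 4 tested members was among them. In epithelial-like cells 14.9% of genes were called and none of 2 members. In T-like cells 0.0445% were called and not Csf2, the only member tested. In sums over all kept cells 4.83% were called (2.5% higher, 2.34% lower) and none of 6 members, and such sums cannot tell fewer cells of a class from less RNA per cell. At an unadjusted p under 0.05, edgeR and DESeq2 each had 1 of the 4 members in macrophage-like cells (Csf1r), 1 of 6 in all cells (Csf2) and 0 in epithelial-like and T-like cells. DESeq2 called none of them either. At the same unadjusted threshold edgeR had 783 of 6043 genes in macrophage-like cells and 3646 of 13342 in all cells. DESeq2 had 667 and 3890 of these genes. In epithelial-like cells edgeR had 3933 of 12288 genes and in T-like cells 1007 of 6735.

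**Figure D3:**
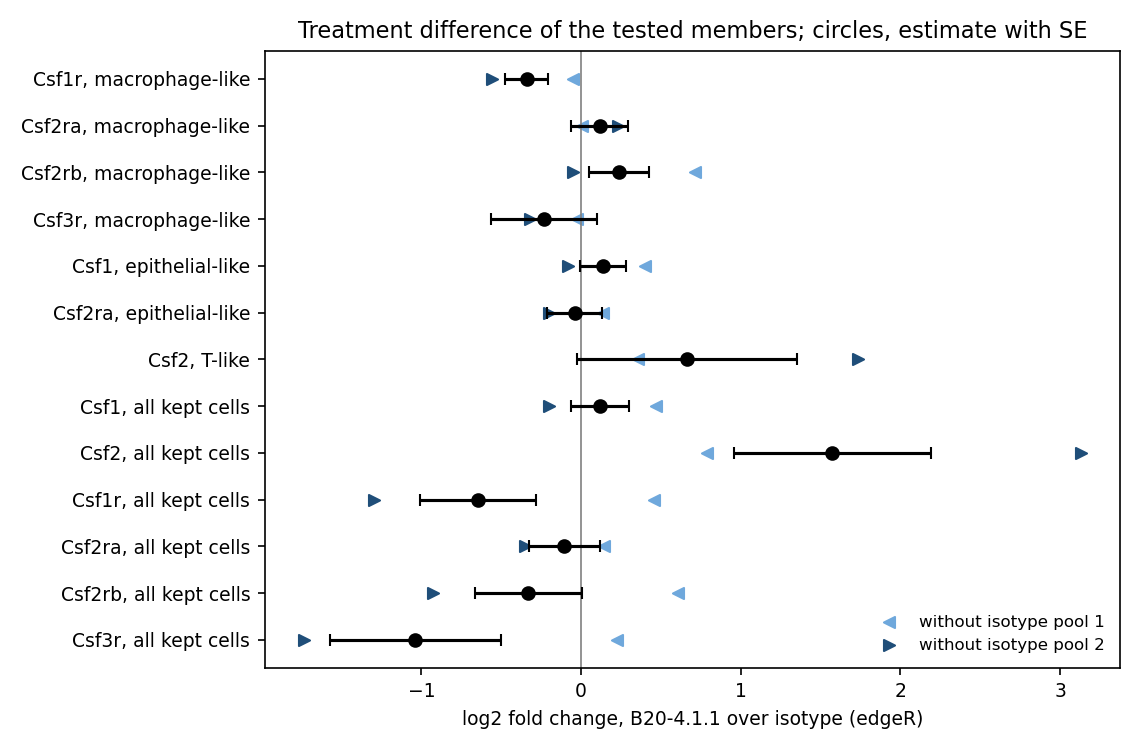
Log2 fold change of B20-4.1.1 against isotype for each tested gene and class, with its SE from edgeR, beside the value without either isotype pool. Csf1r in macrophage-like cells moves from -0.34 to -0.05 without the first isotype pool and to -0.56 without the second.

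Csf1r in macrophage-like cells set the first isotype pool apart. I1, I2 and I3 had 9.03, 9.32 and 8.89 UMIs per 10000, and I4, I5 and I6 had 6.12, 6.13 and 5.82. Under B20-4.1.1 the values were 6.20, 5.14 and 5.06 in the first pool, 5.33, 7.01 and 6.39 in the second and 6.21, 4.00 and 6.07 in the third. The second isotype pool lay inside the range of the B20-4.1.1 tumors, and the first lay above all other tumors. The means were 7.55 ± 1.68 (SD, n = 6) and 5.71 ± 0.910 (SD, n = 9). The log2 fold change was -0.34 ± 0.14 (SE; edgeR adjusted p = 0.280). Without the first isotype pool Csf1r was at -0.05, and without the second at -0.56, which passed (edgeR adjusted p = 0.0319). The fit without the first called 0 of 6352 genes, and that without the second 466 of 7281. The share of macrophage-like cells with a Csf1r UMI after thinning was 78.5% ± 9.15 in the isotype and 66.7% ± 9.63 in the B20-4.1.1 tumors (exact permutation test, two-sided, p = 0.0336, unadjusted, 1 of 18 such tests). Without the first isotype pool that difference was -4.27 percentage points (exact permutation p = 0.482), without the second -19.4 points (exact permutation p = 0.0136), and without thinning it was -6.01 points (exact permutation p = 0.0873). Macrophage-like cells were 10.0% to 11.5% of the kept cells in the first isotype pool and 3.87% to 6.19% in the second. Under B20-4.1.1 they were 1.93% in B3 to 11.0% in B2. The first isotype pool also had the lowest medians per deposited cell, 2192 to 2423 UMIs against 2819 to 9834.5 in the other tumors. Its medians per kept cell were 6880.5 to 7110. Whether any of this plays a part in the Csf1r level was not tested.

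**Figure D4:**
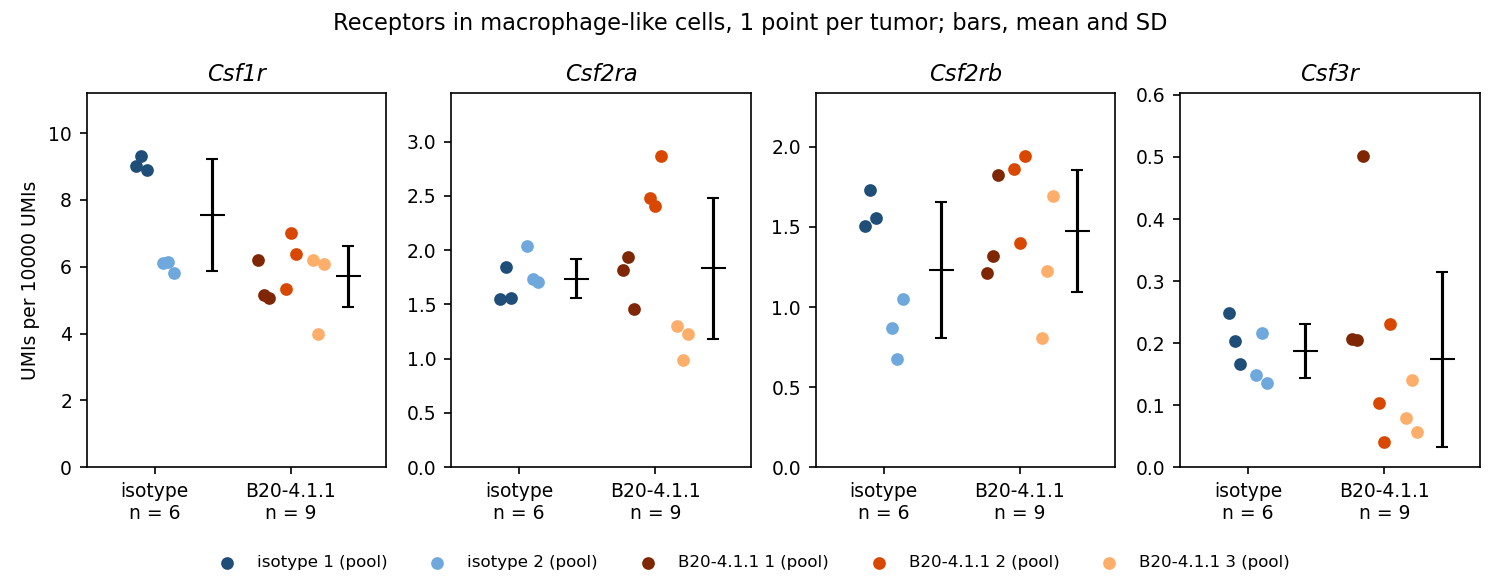
Levels (UMIs per 10000 UMIs) of Csf1r, Csf2ra, Csf2rb and Csf3r in macrophage-like cells, 1 point per tumor, coloured by pool, with the mean and SD of each treatment as bars. The first isotype pool is highest for Csf1r, at 8.89 to 9.32, and the second B20-4.1.1 pool reaches 2.87 for Csf2ra.

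The other receptor genes in macrophage-like cells also varied by pool. Csf2ra was 1.55, 1.85, 1.56, 2.03, 1.74 and 1.71 UMIs per 10000 in I1 to I6. Under B20-4.1.1 it was 1.82, 1.94 and 1.46 in the first pool, 2.48, 2.41 and 2.87 in the second and 1.30, 0.988 and 1.23 in the third. The 3 tumors of the second B20-4.1.1 pool were above every isotype tumor and those of the third below, and the fitted Csf2ra change was 0.12 ± 0.18 (log2, SE; edgeR adjusted p = 0.838). Csf2rb was 1.51, 1.73 and 1.56 in the first isotype pool but 0.869, 0.678 and 1.05 in the second, against 0.806 to 1.94 under B20-4.1.1. Its change was 0.24 ± 0.19 (log2, SE; edgeR adjusted p = 0.635). Csf3r ranged from 0.136 to 0.249 in the isotype tumors and from 0.0405 to 0.502 in the B20-4.1.1 tumors, with a change of -0.23 ± 0.33 (log2, SE; edgeR adjusted p = 0.820).

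In epithelial-like cells Csf1 was 0.193, 0.229 and 0.220 UMIs per 10000 in the first isotype pool and 0.132, 0.139 and 0.122 in the second. The B20-4.1.1 tumors lay between 0.137 and 0.278, so that the isotype pools stood on either side of their median, 0.162. The Csf1 change was 0.14 ± 0.15 (log2, SE; edgeR adjusted p = 0.543). Csf2ra was 0.107 ± 0.0246 in the isotype tumors (SD, n = 6) and 0.0990 ± 0.0281 in the B20-4.1.1 tumors (SD, n = 9), with a change of -0.04 ± 0.17 (log2, SE; edgeR adjusted p = 0.899). The log2 ratio of Csf2ra between macrophage-like and epithelial-like cells was 4.04 ± 0.400 in the isotype and 4.19 ± 0.467 in the B20-4.1.1 tumors, which did not differ beyond the spread (exact permutation test, two-sided, p = 0.531).

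Csf2 in T-like cells had its lower values in tumors of both treatments. It was 0.0412, 0.0191, 0.0807, 0.113, 0.160 and 0.0544 UMIs per 10000 in I1 to I6. In B1 to B9 it was 0.237, 0.165, 0.0113, 0.0264, 0.292, 0.0186, 0.257, 0.129 and 0.276. The 3 low B20-4.1.1 values belonged to B3, B4 and B6, the tumors rich in T-like cells. The Csf2 change was 0.66 ± 0.69 (log2, SE; edgeR adjusted p = 0.688). It was 0.35 without the first isotype pool and 1.73 without the second, and passed in neither (edgeR adjusted p = 0.899 and 0.513). Without these 3 tumors and without the filter on low counts, which then left Csf2 out, it was 1.43 ± 0.34 (edgeR adjusted p = 0.0501), a fit added after the data were seen. The share of T-like cells with a Csf2 UMI after thinning was 1.49% ± 1.88 and 2.91% ± 2.26 (exact permutation test, two-sided, p = 0.207). Without the 3 tumors the B20-4.1.1 share was 4.24% ± 1.33 (exact permutation p = 0.0260). This setting too was added after the data were seen. It leaves out the tumors with the lowest B20-4.1.1 levels, so its p-value decides nothing about the treatment.

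Within cluster 8 Csf2 was 0.0498, 0.0265, 0.0985, 0.134, 0.165 and 0.0677 UMIs per 10000 in I1 to I6. In B1 to B9 it was 0.276, 0.181, 0.108, 0.230, 0.336, 0.176, 0.267, 0.173 and 0.378. The means were 0.0902 ± 0.0524 (SD, n = 6; 34 UMIs) and 0.236 ± 0.0866 (SD, n = 9; 97 UMIs), 2.62 times higher under B20-4.1.1. The groups overlapped in that B3 lay within the isotype range. Single tumor values rest on few UMIs, and cluster 8 had 33 cells in I1 and 23 in B4. In B5, 1 cell held 18 of the 38 Csf2 UMIs of that tumor. The cluster was chosen after its values were seen, so no test was made.

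**Figure D5:**
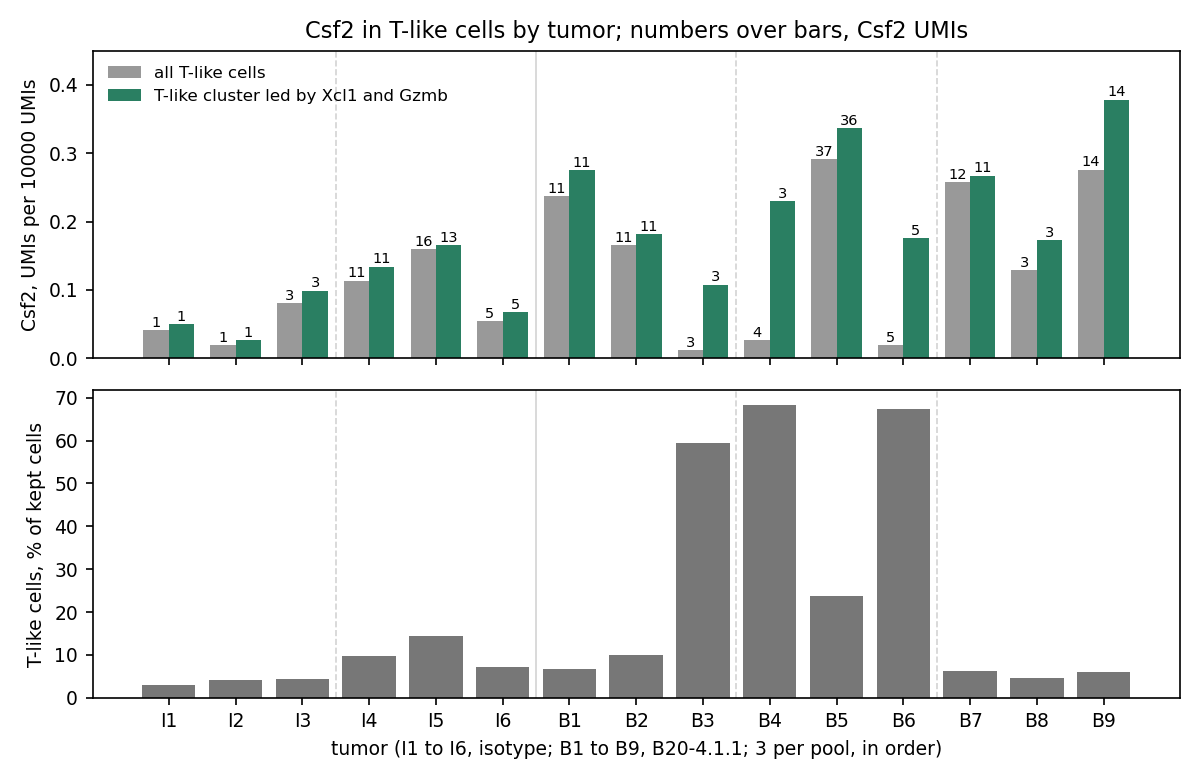
Csf2 level (UMIs per 10000 UMIs) per tumor in all T-like cells and in T-like cluster 8, beside the T-like share of kept cells (%). B3, B4 and B6, with 59.5% to 68.3% T-like cells, are low in all T-like cells (0.0113 to 0.0264) but reach 0.108 to 0.230 in cluster 8.

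Other detection shares passed only before adjustment. Csf2ra was seen in 1.01% ± 1.01 of T-like cells in the isotype and 0.215% ± 0.350 in the B20-4.1.1 tumors (exact permutation p = 0.0268), and without thinning the difference was -0.578 points (exact permutation p = 0.189). Csf3r was seen in 1.34% ± 0.906 and 0.431% ± 0.393 of all kept cells (exact permutation p = 0.0186), and without the first isotype pool, which held most neutrophil-like cells, the difference was -0.113 points (exact permutation p = 0.691). In sums over all kept cells the log2 changes were -0.64 ± 0.36 for Csf1r, -1.04 ± 0.53 for Csf3r and 1.57 ± 0.61 for Csf2 (SE; edgeR adjusted p = 0.260, 0.221 and 0.117). The Csf2 change over all kept cells was 0.79 when the first isotype pool was left out (edgeR adjusted p = 0.551) and 3.13 without the second, where it passed (edgeR adjusted p = 0.0144). That last fit called 4 of 6 members and 3521 of 13901 genes.

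The pathway around these genes was followed in 4 lists, of partner ligands and receptors, signalling proteins, myeloid transcription factors and inducers of the factors. In epithelial-like cells 2 of 17 signalling genes tested rose and 3 fell, against 7.59% and 7.28% of all genes. The median log2 change of the list was 0.05. The adaptor gene Grb2 was 0.40 ± 0.09 higher and the kinase gene Lyn 0.38 ± 0.12 higher (log2, SE; edgeR adjusted p = 0.00916 and 0.0395). Cish, a feedback inhibitor that STAT5 induces after cytokine signalling, had levels of 0.154 to 0.212 UMIs per 10000 in the isotype tumors. In the B20-4.1.1 tumors its levels were 0.101 to 0.122 (log2 change -0.56 ± 0.09, SE; edgeR adjusted p = 0.00124). Pik3cg, a PI3-kinase catalytic subunit, had levels of 0.0586 to 0.135 and 0.0231 to 0.0501 (log2 change -1.14 ± 0.19, SE; edgeR adjusted p = 0.00138). Its isotype values were 0.131, 0.123 and 0.135 in the first pool and 0.0610, 0.0633 and 0.0586 in the second. Cbl, a ubiquitin ligase that acts on Csf1r, was at -0.37 ± 0.12 (log2, SE; edgeR adjusted p = 0.0391). These values moved with the isotype pools. Without the first, Cbl was at -0.07 and did not pass (edgeR adjusted p = 0.754), Pik3cg was at -0.65 and Lyn at 0.59. Without the second, Cbl was at -0.62, Pik3cg at -1.51 and Lyn at 0.22, which did not pass (edgeR adjusted p = 0.159). With any 1 B20-4.1.1 pool left out Cbl did not pass (edgeR adjusted p from 0.0698 to 0.146), nor did Lyn without the first or without the third (edgeR adjusted p = 0.0841 and 0.168). In macrophage-like cells 1 of 8 transcription factor genes tested rose, against 0.463% of all genes, with a list median of 0.03. It was Cebpb, a regulator of macrophage genes, which went from 3.49 ± 0.278 (SD, n = 6) to 6.78 ± 1.82 UMIs per 10000 (SD, n = 9; log2 change 1.00 ± 0.16, SE; edgeR adjusted p = 0.0185), with ranges of 3.09 to 3.86 and 3.53 to 10.3. In sums over all kept cells Grb2 rose, and no gene of the other lists passed in any class. With the pool as a random block, or with sums per pool, none of the genes named here passed, with adjusted p-values from 0.0867 for Pik3cg upward. Cebpb also did not pass without B3, B4 and B6 (0.82; edgeR adjusted p = 0.0726), nor Cish on thinned cells (-0.37; edgeR adjusted p = 0.0898).

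Among the partner genes Il3 had no UMI in the 19533 cells, which allows up to 0.000176 UMIs per 10000. Flt3, a growth factor receptor of dendritic cells, was at 1.54 in dendritic-like cells, and Kitl, the ligand of Kit, at 1.02 in epithelial-like cells. Of the inducers, Il1b was at 44.8 in neutrophil-like and 11.3 in macrophage-like cells.

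The genes whose pattern was most like a member were ranked by Pearson correlation of log2 levels over 52 units, each 1 class of 1 tumor, from 6 classes. The units share libraries and class markers, so these values are descriptions. For Csf1r they were Clec4a2 (0.991), Havcr2 (0.991), Mpeg1 (0.989), Cd300c2 (0.986) and Csf2rb2 (0.985). For Csf2ra they were led by Tlr2 (0.977), for Csf2rb by Pirb (0.993) and Nlrp3 (0.987), and for Csf3r by Clec4e (0.947), F630028O10Rik (0.942) and Trem1 (0.939). Csf1 had looser neighbours, led by Prnp (0.805) and Gpc3 (0.804). The correlation of Csf1 with its receptor Csf1r was -0.0191. Csf2rb stood at 0.927 with Csf1r and 0.813 with Csf3r.

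The genes listed here lie apart in the mm10 genome (GENCODE vM21), and the position of Csf1r is not reported here. Csf1 (chr3:107741048-107760469), Il34 (chr8:110741829-110805924), Csf2 (chr11:54247271-54249667) and Csf2ra (chr19:61223957-61228429) are on the minus strand. Csf2rb (chr15:78325752-78353847), Csf3 (chr11:98701263-98703629) and Csf3r (chr4:126024550-126044440) are on the plus strand.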

How the data were processed

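The authors sequenced 5 pools with a 10x 3′ protocol and counted UMIs with Cell Ranger (6.1.2 per the file headers), and the submitters' notes name mm10 and Seurat 4.3.0. The deposited values are raw UMI counts, 1 matrix per tumor, after assignment to tumors by multiplexing oligonucleotides. Cells of 2500 to 27500 UMIs and at most 20% mitochondrial UMIs were clustered (scanpy 1.11.5, Leiden resolution 0.8, 16 principal components, 2500 variable genes, without the 8 genes). No doublet caller was run. A cluster was named when at least 3 markers of a class were in at least 25% of its cells and no rival class reached 70% of its score, thresholds set after the clusters were seen. Counts were summed per tumor and class (at least 20 cells) and fitted with the quasi-likelihood test of edgeR 4.0.16 (R 4.3.3) with Benjamini-Hochberg adjustment over all genes, on 6 isotype and 9 B20-4.1.1 tumors. DESeq2 1.42.0 and limma 3.58.1 were alternatives. Shares of cells and class differences were tested with exact permutation tests over tumors. The fitting code was tested on simulated data. The labels do not name the high and low hypoxia tumors, which were not compared. The 8 genes and the lists were chosen with earlier results of these data known. Named were the 8 genes, list genes with an adjusted p under 0.05, and the 5 genes most like a member.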

Additional observations from a re-analysis of the deposited data

Results flagged for a closer look

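Of 26 groups of 6 or 9 tumors checked for a tumor far from the rest, 3 held one, and chance alone flags about 1 in 20 groups. In B5 the epithelial-like Csf1 level was 0.278 UMIs per 10000, above the next B20-4.1.1 tumor at 0.189. In B3 the macrophage-like Csf3r level was 0.502, above 0.231 in the next tumor, from 11 UMIs in 22 cells. In B5 the Csf2 level over all kept cells was 0.0438, above 0.0176 in the next tumor, and 1 cell held 18 of its 38 UMIs.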

How the results depend on the processing

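No paired analysis was possible because the labels carry no replicate numbers that pair the pools and each pool holds 1 treatment. Genes called over all cells (645) became 333 with no filter on low counts, 1867 with DESeq2, 0 with the pool as random block, 0 with sums per pool, 121 with thinned cells, and 5 to 3521 when 1 pool was left out. In epithelial-like cells 1828 became 47 with the block, 0 with pool sums, 1022 thinned and 427 to 5532 with a pool left out. In macrophage-like cells 32 became 96 with no filter, 71 with DESeq2, 0 with the block, 3 with pool sums, 0 without the tumors rich in T-like cells, 2 with cells gated one by one, 19 with cells from 1000 UMIs and 0 to 466 with a pool left out. In T-like cells 3 became 50 with DESeq2, 20 without the T-rich tumors and no filter (added after seeing the data), 0 to 380 with a pool left out, and 0 with no filter, block, pool sums, thinning, gating or cells from 1000 UMIs. Members called with a pool left out were 0 to 4 over all cells, 0 to 2 in epithelial-like and 0 to 1 in macrophage-like cells. Each of these maxima came without the second isotype pool, where 6, 4 and 5 members were tested. Of all genes, 3521 of 13901, 5532 of 12605 and 466 of 7281 were called there. The detection tests with p under 0.05 (3) became 0 unthinned, 1 from 1000 UMIs and 0 to 7 with a pool left out. Neighbouring class pairs called (6) were 6 to 7 with a pool left out, 6 thinned and 8 with cells gated one by one.

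Signs turned for Csf2ra in epithelial-like cells (0.0013 with pool sums), Csf2rb in macrophage-like cells (-0.033 thinned), Csf2ra there (-0.0061 without the T-rich tumors) and Csf2 in T-like cells (-0.81 with the block). The detection difference from 1000 UMIs turned for Csf2 (-0.426 points) and Csf2ra (0.122 points) in T-like cells, a class that there lacks the cluster led by Xcl1 and Gzmb, which stayed unnamed. Csf1 in epithelial-like over macrophage-like cells turned thinned (-0.0427), and Csf2rb in T-like over epithelial-like cells turned gated (-0.00593) and thinned (-0.0017). With a pool left out, log2 changes over all cells ran from -0.20 to 0.47 (Csf1), -2.24 to 0.22 (Csf3r), -0.93 to 0.61 (Csf2rb), -1.29 to 0.46 (Csf1r) and -0.35 to 0.14 (Csf2ra), and for Csf2 from 0.79 to 3.13 (0.35 to 1.73 in T-like cells). In epithelial-like cells they ran from -0.0801 to 0.40 (Csf1) and -0.20 to 0.17 (Csf2ra). In macrophage-like cells they ran from -0.32 to 0.10 (Csf3r), -0.0528 to 0.71 (Csf2rb) and -0.17 to 0.35 (Csf2ra), and Csf2rb in T-like over epithelial-like cells from -0.00061 to 0.0034. The causes were not tested.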
